A study of Mus musculus with 2 samples.

Results

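The 40 genes described here are transcripts of the cell cycle, the program by which a cell copies its DNA and divides. They were taken as the matrix rows whose symbol is on a list of proliferation genes. All 40 were found among the 32285 genes of the matrices. Of these, 15 act in S phase, when DNA is copied, 23 act in G2 phase and mitosis (G2/M), when the copies are separated, and Ccna2 and Stmn1 were put in neither set. The cells came from the lungs of female BALB/cJ mice. At 12 weeks of age the mice had received 100000 luciferase-expressing 4T1 cells, a mouse mammary carcinoma line, and lungs were taken 14 days later. One group received intravenous saline. The other received intravenous PLG nanoparticles (NPs), cargo-free polymer particles, and both groups were dosed every 3 days from day 1. The lungs of 4 mice per group were pooled into 1 library, so the study has 1 saline and 1 NP library, and no difference between them has a replicate check.

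In most cells of an adult lung these genes are nearly silent. On the way into S phase, E2F factors switch on genes for nucleotide supply and for the MCM helicase that opens DNA. The DREAM complex keeps many cell-cycle genes off in resting cells. During G2, B-MYB and FOXM1 complexes switch on the genes of the spindle, the kinetochore and the cyclin B kinase. Neutrophils lose the capacity to divide while they mature in the bone marrow. Granulocyte progenitors and the youngest granule-forming neutrophils still divide, as do activated lymphocytes and tissue macrophages.

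The promoters of the members are where these programs meet, and 33 of 40 members had a window of 300 bases (250 before to 50 after the start) in the RefSeq table for GRCm38.p6. Members not matched were Aurkb, Tpx2, Mcm4, Stmn1, Ccne2, Ccna2 and Gins2. Motifs were searched on both strands as exact letters. The CHR element of DREAM target genes was TTTGAA or TTCAAA, the CCAAT box was CCAAT or ATTGG, and the E2F site was TTTCCCGC, GCGGGAAA, TTTGGCGC or GCGCCAAA. Matches that overlap each other, such as CCAAT and ATTGG on the same bases, were each counted. A CHR match was present in 15 of 21 G2/M promoters (71.4%), 1 of 12 S promoters (8.33%) and 18.1% of the 27025 promoters of all genes. An E2F match was present in 0 of 21 G2/M promoters, 5 of 12 S promoters (41.7%) and 1.63% of all promoters. A CCAAT match was present in 18 of 21, 10 of 12 and 37.9%. A pair of G2/M and a pair of S promoters are shown because each holds more than 1 CHR or E2F match, with every match in capitals. Mki67 encodes the proliferation antigen Ki-67 (chr7:135716330-135716629, minus strand) and Top2a encodes the topoisomerase that untangles sister chromatids (chr11:99024140-99024439, minus strand). Mcm3 (chr1:20820263-20820562, minus strand) and Mcm6 (chr1:128359656-128359955, minus strand) encode subunits of the replicative helicase.
Mki67: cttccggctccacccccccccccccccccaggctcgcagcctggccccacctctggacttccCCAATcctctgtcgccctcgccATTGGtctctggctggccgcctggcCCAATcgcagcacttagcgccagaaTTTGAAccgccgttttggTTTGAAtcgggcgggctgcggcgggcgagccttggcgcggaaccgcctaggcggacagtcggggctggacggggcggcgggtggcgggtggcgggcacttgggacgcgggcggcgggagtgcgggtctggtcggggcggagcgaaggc
Top2a: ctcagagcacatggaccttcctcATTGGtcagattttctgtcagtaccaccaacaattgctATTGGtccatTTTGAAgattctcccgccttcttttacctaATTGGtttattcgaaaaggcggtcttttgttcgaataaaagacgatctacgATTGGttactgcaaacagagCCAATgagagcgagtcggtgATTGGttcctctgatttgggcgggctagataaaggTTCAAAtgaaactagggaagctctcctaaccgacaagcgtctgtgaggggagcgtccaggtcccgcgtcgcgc
Mcm3: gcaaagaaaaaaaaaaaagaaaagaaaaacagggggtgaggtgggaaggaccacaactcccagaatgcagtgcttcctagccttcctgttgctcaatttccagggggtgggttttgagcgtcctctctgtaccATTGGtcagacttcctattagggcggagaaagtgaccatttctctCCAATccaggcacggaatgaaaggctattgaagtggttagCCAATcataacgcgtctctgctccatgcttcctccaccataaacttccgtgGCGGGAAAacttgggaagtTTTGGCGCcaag
Mcm6: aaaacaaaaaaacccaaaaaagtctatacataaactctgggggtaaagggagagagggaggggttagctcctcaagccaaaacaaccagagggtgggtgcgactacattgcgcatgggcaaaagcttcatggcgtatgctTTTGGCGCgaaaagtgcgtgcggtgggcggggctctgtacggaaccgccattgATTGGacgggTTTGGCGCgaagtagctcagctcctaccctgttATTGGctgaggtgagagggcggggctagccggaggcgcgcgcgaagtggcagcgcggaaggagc
The first pair holds paired CHR and CCAAT letters and no E2F letters. The second pair holds a pair of E2F matches each and no CHR letters. These matches describe the sequence and not binding.

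Each count is a unique molecular identifier (UMI), which marks 1 captured transcript. The libraries held 91168129 (saline) and 90081747 (NP) UMIs, and barcodes with 500 to 5000 genes and under 7.5% mitochondrial UMIs were kept as cells, which gave 8662 saline and 8333 NP cells with a median of 6474.5 and 6008 UMIs. The libraries shared 21 cell barcodes. Cells were clustered without the cell-cycle genes and named from marker lists. The lists were higher in their own class than elsewhere in both libraries for all 14 named classes, in saline by the narrowest margin in a cluster led by Siglech (dendritic markers at 573 against 326 CPM, where CPM is UMIs per 1000000). Here a cell was called cycling when at least 3 different members had a UMI after the cell was thinned to 1000 UMIs, since deeper cells would otherwise pass more easily. Cells with under 1000 UMIs, 60 saline and 169 NP, could not be thinned and were left out. Intervals are 95% intervals and cover counting error only.

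Cycling cells were rare in both libraries. In the saline library 60 of 8602 cells were called (0.698%, 0.533 to 0.897%, Clopper-Pearson), and in the NP library 81 of 8164 (0.992%, 0.789 to 1.23%). The log2 ratio of NP over saline was 0.51 (0.01 to 1.01). The libraries differed in their share of neutrophils, and neutrophils other than the immature cluster held almost no cycling cells, with 2 of 5184 in saline and 1 of 2799 in NP. Without those neutrophils the shares were 58 of 3418 (1.70%) and 80 of 5365 (1.49%), and the log2 ratio was −0.19 (−0.69 to 0.33). The higher share of all NP cells was not present once these neutrophils were left out. Just inside the limit, 29 saline and 29 NP cells had exactly 3 members with a UMI. Just outside it, 117 and 198 cells had 2, and 7319 and 6537 cells had none.

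Free RNA was present in droplets without a cell. Barcodes with under 50 UMIs, which hold no cell, carried members at 320 CPM in the saline and 398 in the NP library. Pooled over all classes, cells that were not called carried 174 and 225 CPM, below that level, whereas cycling cells carried 5568 and 6148 CPM. This did not hold for each class. Uncalled NK cell-like and endothelial cell-like cells lay above the free RNA level in both libraries. Of the large classes the other neutrophils had the lowest shares called, 0.0386% (interval up to 0.139%) and 0.0357% (up to 0.199%), at median depths of 5628 and 4912.5 UMIs. Cycling cells were deeper, with medians of 18951.5 and 19952 UMIs against 6432.5 and 5977 in the other cells.

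**Figure D1:**
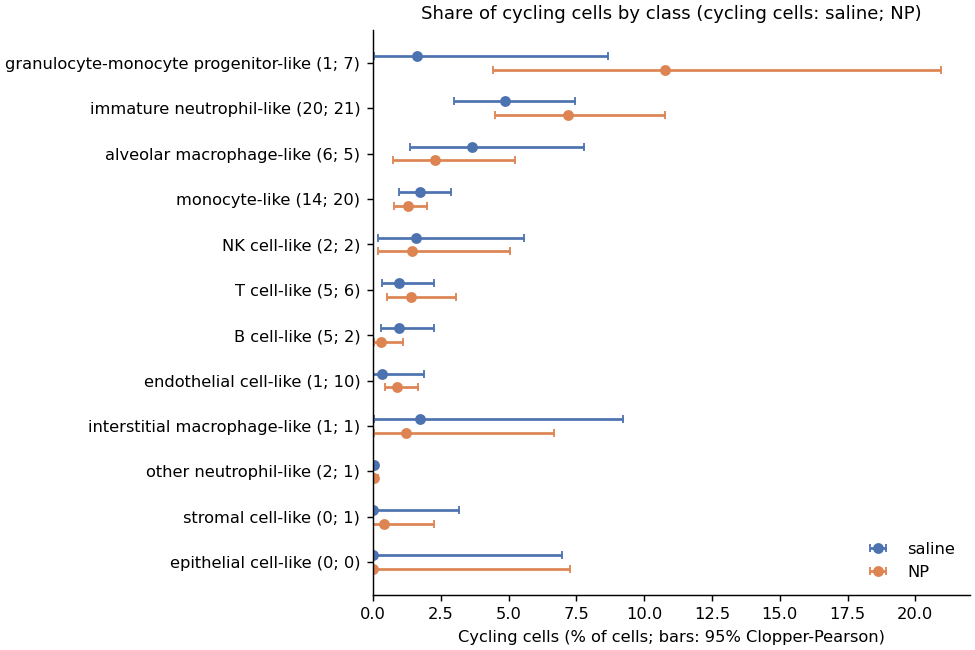
Share of cells called cycling (x axis, percent of cells with at least 1000 UMIs) in each named class (y axis, with the number of cycling cells in saline and NP in brackets). Points are the 2 libraries and bars are 95% Clopper-Pearson intervals. Immature neutrophil-like cells have the highest shares of the large classes, 4.88% and 7.19%, and the saline and NP intervals overlap in every class shown. Basophil or mast cell-like cells, the Siglech-led cluster and unnamed cells are not drawn.

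Immature neutrophil-like cells and monocyte-like cells together gave 34 of 60 saline and 41 of 81 NP calls. The immature neutrophil-like cluster was led by Camp, Ltf, Ngp and Cebpe, which mark neutrophils that are still filling their secondary granules. It held 20 cycling cells of 410 in saline (4.88%, 3.00 to 7.43%) and 21 of 292 in NP (7.19%, 4.51 to 10.8%). The log2 ratio of 0.56 had an interval from −0.39 to 1.52, so a difference was not detectable at this depth. These cells made up 33.3% of the saline and 25.9% of the NP cycling cells. The name of these cells depended on the clustering. When the cell-cycle genes were kept in it, the calls were 6 of 595 saline and 5 of 330 NP cells in this class, monocyte-like cells 4 of 781 and 3 of 1514, the Mpo-led class 11 of 26 and 21 of 35, and clusters without a name 17 of 339 and 26 of 561.

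Monocyte-like cells had 14 cycling cells of 812 in saline (1.72%, 0.946 to 2.88%) and 20 of 1551 in NP (1.29%, 0.789 to 1.98%). All 34 were in 1 of the 3 monocyte-like clusters, led by F13a1, Ccr2, Vcan and Fn1, genes of classical inflammatory monocytes. Within it the shares were 14 of 565 (2.48%) and 20 of 742 (2.70%), with a log2 ratio of 0.12 (−0.94 to 1.22). The other two clusters had 0 of 152 and 0 of 95 saline cells, which allow shares of up to 1.97% and 3.16%, and 0 of 440 and 0 of 369 NP cells, which allow up to 0.682% and 0.813%. The lower share of all NP monocyte-like cells, with a log2 ratio of −0.42 (−1.48 to 0.68), was not present within the cluster that cycled.

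Alveolar macrophage-like cells, which renew themselves in the airspaces, had 6 of 164 (3.66%, 1.35 to 7.79%) and 5 of 220 (2.27%, 0.742 to 5.22%). T cell-like cells had 5 of 511 (0.978%) and 6 of 423 (1.42%), B cell-like cells 5 of 516 (0.969%) and 2 of 639 (0.313%), and NK cell-like cells 2 of 127 and 2 of 140. Endothelial cell-like cells had 1 of 296 (0.338%) and 10 of 1105 (0.905%). No interval of a ratio excluded 0 in these classes. Of 51 saline and 49 NP epithelial cell-like cells none was called. This allows shares of up to 5.88% and 6.12% as 3 over the number of cells, with Clopper-Pearson limits of 6.98% and 7.25%. Stromal cell-like cells had 0 of 115 and 1 of 246, interstitial macrophage-like cells 1 of 58 and 1 of 81, basophil or mast cell-like cells 1 of 20 and 1 of 39, a cluster led by Siglech, Klk1 and Cox6a2 1 of 18 and 0 of 34, and clusters without a name 1 of 258 and 4 of 481. The Siglech-led cluster was named from dendritic markers, but 5 of the 10 were at 0 in its saline cells and 3 in its NP cells, and its leading genes are on the list of plasmacytoid dendritic cells. Of the interstitial macrophage-like cells, 55.2% in saline and 60.5% in NP had any marker of their list, and the leading genes included the dendritic marker Cd209a. The called cells carried the list at 0 CPM in saline and 44.6 in NP, against 8122 and 11747 in the class. The name therefore does not hold for the called cells.

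A cluster led by Mpo, Ctsg and Prtn3, granule genes of granulocyte-monocyte progenitors, had 1 of 62 saline cells and 7 of 65 NP cells called. It carries the name granulocyte-monocyte progenitor-like in the plots, from its markers over both libraries. Its name did not hold equally for both libraries, with the marker list at 149 CPM in saline and 653 in NP. Mpo, the myeloperoxidase gene, had a UMI in 6 of 62 saline and 35 of 86 NP cells, whereas Prtn3 had one in 37 and 42. The 1 called saline cell carried the list at 0 CPM, against 2111 in the NP calls, so the name does not hold for that cell. The median depth was 21941.5 and 1374.5 UMIs. A further 21 NP cells were too shallow to thin. The log2 ratio of its shares, 2.74 (−0.22 to 8.23), therefore sets unlike cells side by side and is not read as a difference.

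The call used only the 1000 drawn UMIs, so the UMIs left undrawn in the same cells gave a second count of the members. At least 2000 member CPM of undrawn UMIs were found in 40 of 60 saline calls and 55 of 81 NP calls, against 44 of 8542 and 57 of 8083 cells that were not called. Immature neutrophil-like calls passed in 16 of 20 and 18 of 21 cells, with medians of 6659 and 6826 CPM against 33.9 and 41.6 in the cells of that class not called. Monocyte-like calls passed in 10 of 14 and 13 of 20, and alveolar macrophage-like calls in 5 of 6 and 3 of 5. T cell-like calls passed in 2 of 5 saline and 5 of 6 NP cells, and B cell-like calls in 2 of 5 and 0 of 2. All 3 calls among the other neutrophils passed, at 10795 to 14676 CPM, so their shares do not measure the rate of false calls. With 500 or fewer undrawn UMIs 1 member UMI is enough to pass. This held for 4 NP calls and 0 saline calls, and 2 of the 4 passed, of which 1 was an alveolar macrophage-like cell and 1 was in the Mpo-led cluster.

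Endothelial cell-like calls did not repeat in this way. Of 10 NP calls 2 passed, at 9840 and 5155 CPM, and the 1 saline call had no member among its undrawn UMIs. The median of the NP calls was 947 CPM, against 318 in endothelial cell-like cells that were not called. The limit of 2000 was chosen after the data were seen. With it, 0 saline and 2 NP endothelial cell-like cells remained as calls.

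**Figure D2:**
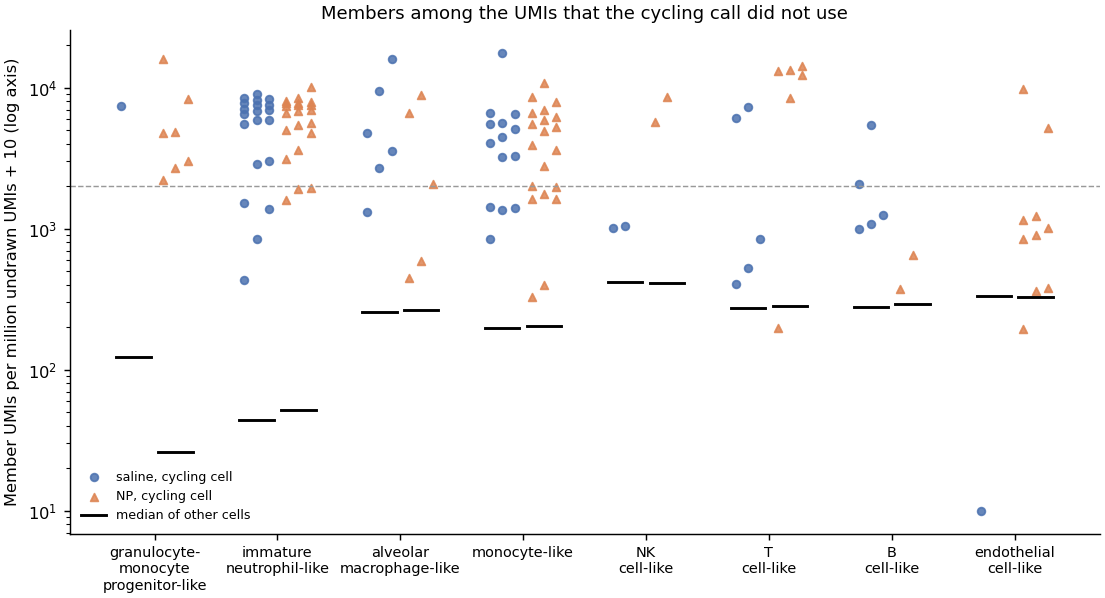
Member CPM of undrawn UMIs, plus 10, on a log axis (y) in each cycling cell of 8 classes (x). Circles are saline and triangles NP cells, black lines are the medians of the cells that were not called, and the dashed line marks 2000 CPM. Most immature neutrophil-like and monocyte-like cells lie above the line, and 2 of 10 NP endothelial cell-like cells do.

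The balance of S and G2/M members differed among the classes. Over all cycling cells, S members gave 1066 of the S and G2/M UMIs in saline against 5873 on G2/M members (15.4% S, 14.5 to 16.2%), and 1907 against 7590 in NP (20.1%, 19.3 to 20.9%). With each cell given equal weight the S share was 33.8% and 37.6%, and the cells with most member UMIs leaned to G2/M. A cell was said to lean to S when S members gave at least 67% of these UMIs and to G2/M when they gave at most 33%. The call and these limits took no account of the 15 S against 23 G2/M members. In cycling cells S members were at 802 and 1147 CPM and G2/M members at 4421 and 4566. The lean may thus reflect the sets as well as phase, which was not tested. In saline 15 cells leaned to S, 41 to G2/M and 4 lay between, and in NP the numbers were 19, 48 and 14. These numbers and the equal-weight shares include calls under 2000 member CPM of undrawn UMIs. In both libraries most cells that leaned to S were under that limit, in saline by a small margin. The limit counts S and G2/M members together, and S members were at lower levels, so these cells reach it less easily. A saline alveolar macrophage-like cell with 23 S and 0 G2/M UMIs was under it at 1306 CPM. The median of cells of its class not called was 246. Others had no member among their undrawn UMIs. The limit thus cannot decide whether the calls that leaned to S repeated.

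Immature neutrophil-like cells leaned to G2/M. In saline all 20 did, with S shares from 2.11 to 28.8%. In NP 16 of 21 did, 4 lay between the limits and 1 leaned to S. The cell that leaned to S had 4 S and 0 G2/M UMIs, and 1585 member CPM of undrawn UMIs. The pooled S share was 8.16% (7.37 to 8.99%) in saline and 18.1% (17.0 to 19.2%) in NP. The 4 NP cells between the limits had 98, 99, 175 and 181 S UMIs, of 918 over all 21 cells. No saline cell had over 86. The higher pooled share in NP came with these 4 cells, while the median cell had 10.1% and 10.9%. No saline cell of this class had 3 S members with a UMI after thinning, and 4 NP cells did.

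Monocyte-like cells also leaned to G2/M, in 13 of 14 saline and 17 of 20 NP cells. S members had 126 UMIs and G2/M members 715 in saline (S share 12.6 to 17.6%), and 271 and 1486 in NP (13.8 to 17.2%). The 3 other neutrophils called all leaned to G2/M.

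Lymphocytes and alveolar macrophage-like cells held both kinds of cell. Of the T cell-like cells, 3 of 5 saline cells leaned to S and 1 to G2/M, and 1 of 6 NP cells leaned to S and 4 to G2/M. The 4 NP cells with most G2/M UMIs had 235, 261, 271 and 275 of them, and the highest saline cell had 77. Of the alveolar macrophage-like cells, 4 of 6 saline and 2 of 5 NP cells leaned to S. All 4 NK cell-like cells and 4 of the 7 B cell-like cells leaned to S. Some did so on few UMIs, such as a saline NK cell-like cell with 5 S and 1 G2/M UMIs. In cells not called, S and G2/M UMIs were 1771 and 509 in alveolar macrophage-like and 1570 and 661 in T cell-like cells. They were 1202 and 697 in B cell-like, 5092 and 3581 in monocyte-like and 488 and 1856 in immature neutrophil-like cells. The part of this background in the lean of the calls was not tested. Among endothelial cell-like cells 7 of 10 NP calls leaned to S on 2 to 4 S UMIs each, whereas 1 had 76 G2/M UMIs and 1 S UMI.

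**Figure D3:**
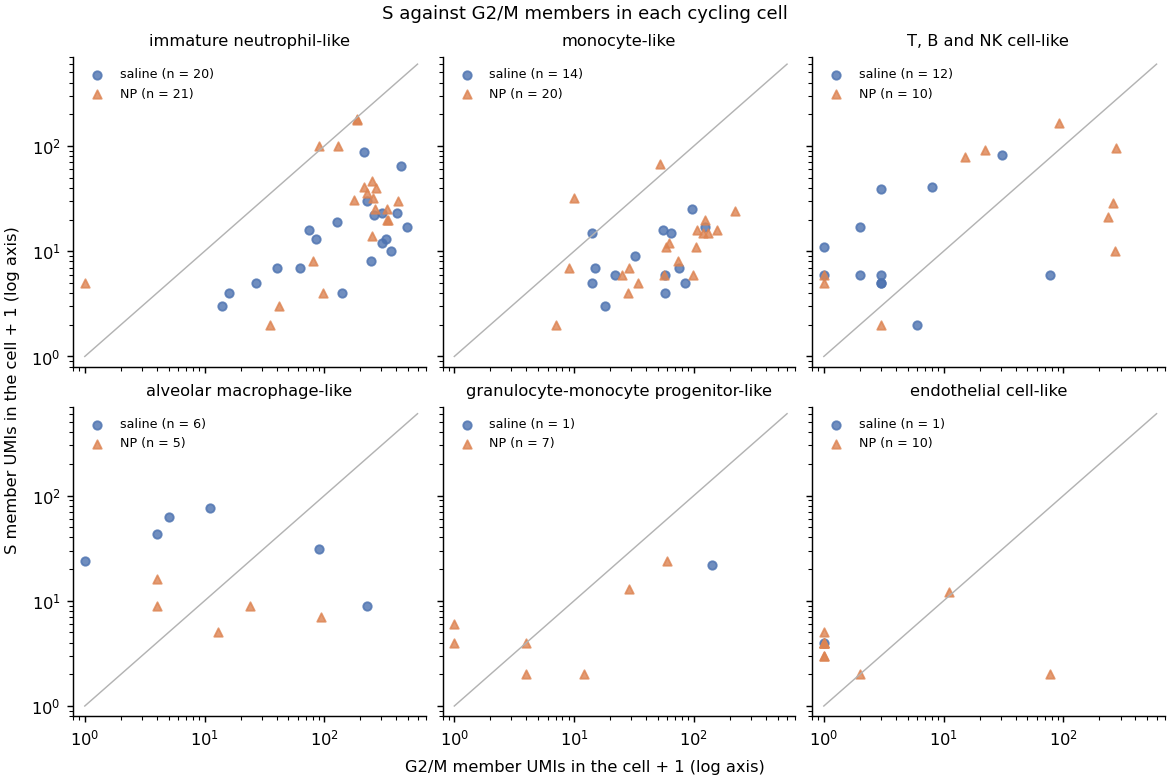
S member UMIs (y, plus 1, log axis) against G2/M member UMIs (x, plus 1, log axis) in each cycling cell of 6 groups of classes. Circles are saline and triangles NP cells, and the line marks equal numbers. Immature neutrophil-like and monocyte-like cells lie below the line in all but a few cells, and lymphocytes and alveolar macrophage-like cells lie on both sides.

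Among the G2/M members, Ube2c, the ubiquitin-conjugating enzyme of the anaphase-promoting complex, had the most UMIs in cycling cells, at 641 CPM in saline and 581 in NP. Apart from this count of UMIs, each gene is compared between the libraries and not with other genes. The centromeric histone Cenpa was at 428 and 422 CPM, Birc5, a chromosomal passenger protein, at 335 and 383, Mki67 at 298 and 365, and Top2a at 263 and 321. Cdk1, the mitotic kinase, was at 171 and 165, and its cyclins Ccnb1 and Ccnb2 at 143 and 126 and at 276 and 274. None of these differed by more than a log2 ratio of 0.29 between the libraries. The kinase Aurkb was at 49.7 and 89.6 CPM, a log2 ratio of 0.85 (0.42 to 1.29), the highest among G2/M members. Cenpf, a kinetochore protein, had the lowest, −0.31 (−0.55 to −0.07), at 215 and 173.

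Other kinetochore and spindle members lay within these bounds. The log2 ratios were −0.08 for the motor Cenpe, 0.33 for the motor Kif11, 0.26 for Tpx2, 0.42 for Nusap1 and 0.04 for Hmmr, all of which work on spindle microtubules. The mitotic kinases Aurka and Plk1 were at −0.15 and −0.08, and the checkpoint kinase Bub1 at 0.62 (−0.08 to 1.35). Cdc20, which activates the anaphase-promoting complex, was at −0.01, the securin Pttg1 at 0.03, the passenger protein Cdca8 at 0.00, Cdca3 at −0.02 and the phosphatase Cdkn3 at −0.24. The S and G2 cyclin Ccna2 was at 0.21 (−0.09 to 0.52) and Stmn1, which destabilises microtubules, at 0.38 (0.18 to 0.59).

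S members differed more. Of their 1907 UMIs in NP cycling cells, 553 were in the 4 immature neutrophil-like cells between the S and G2/M limits. The part of these cells in the ratios of single genes was not tested. Rrm2, the regulatory subunit of ribonucleotide reductase, had 72 UMIs in saline and 254 in NP cycling cells, at 54.2 and 153 CPM, a log2 ratio of 1.50 (1.11 to 1.89). The partner subunit Rrm1 was at 38.4 and 63.2 CPM (0.72, 0.22 to 1.23). Tyms, which makes thymidylate, was at 32.4 and 64.4 (0.99, 0.47 to 1.54) and thymidine kinase Tk1 at 15.8 and 31.3 (0.98, 0.23 to 1.79). The cyclin Ccne2 had 7 and 33 UMIs (1.91, 0.71 to 3.34), which lay in only 4 saline and 7 NP cycling cells. Pclaf, a partner of PCNA, was at 258 and 380 (0.56, 0.37 to 0.75) and the clamp Pcna itself at 100.1 and 149.8 (0.58, 0.27 to 0.90).

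Helicase members did not follow them in the pooled cycling cells. Mcm3 was lower in NP cycling cells, at 62.5 and 36.7 CPM (−0.77, −1.27 to −0.27). Intervals of the other helicase subunits included 0, with log2 ratios of 0.18 for Mcm2, −0.35 for Mcm4, 0.19 for Mcm5, −0.14 for Mcm6 and 0.43 for Mcm7, as did those of the helicase partner Gins2 (−0.15) and of Uhrf1 (−0.09), which maintains DNA methylation. Of all 40 members 2 (Rrm2 and Ccne2) were at least 2-fold higher in NP cycling cells and 0 at least 2-fold lower, against 5.66% of 7957 genes at least 2-fold higher. The median log2 ratio was 0.43 for S members, −0.01 for G2/M members and 0.09 for all genes. The mix of classes among the cycling cells differed between libraries, and its part in these values was not tested.

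**Figure D4:**
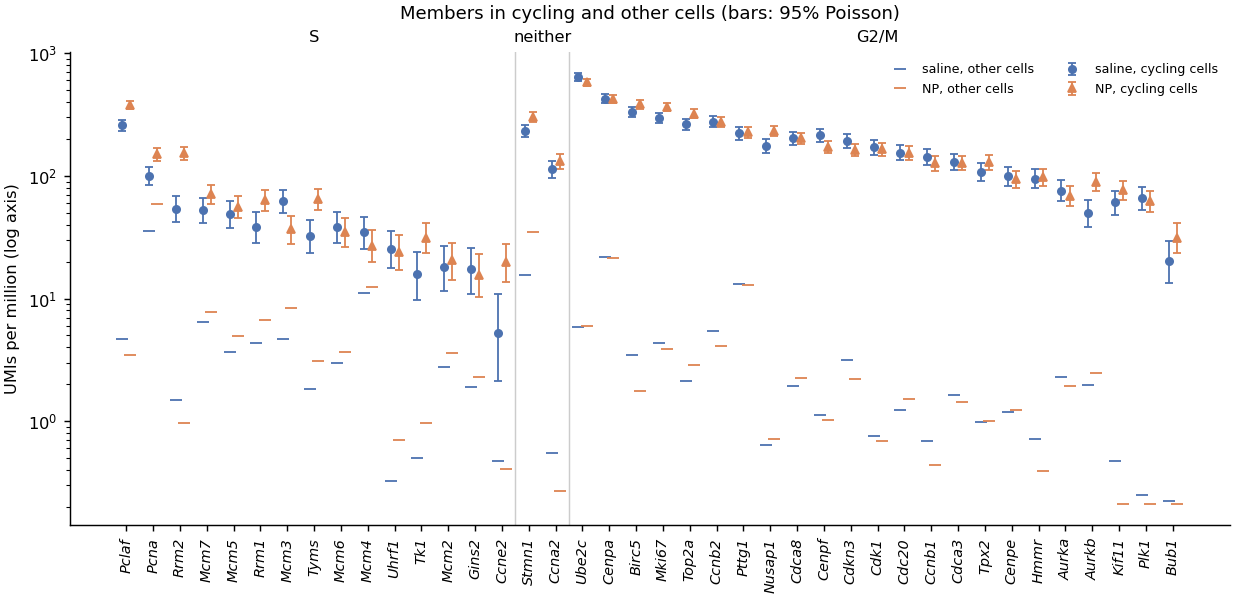
CPM (y, log axis) of the 40 members (x) in cycling cells (points with 95% Poisson intervals) and in all other cells (dashes), for saline (circles) and NP (triangles). Members are grouped as S, neither and G2/M. Levels in cycling cells are above those in other cells for every member, as the call favors, and Rrm2 and Ccne2 are the members at least 2-fold higher in NP.

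Within immature neutrophil-like cells as a whole, called or not, all 40 members had at least 20 UMIs. Their summed level was 640 CPM in saline and 864 in NP (log2 ratio 0.43, 0.38 to 0.48). S members were at 69.6 and 152 CPM (1.13, 0.99 to 1.27) and G2/M members at 535 and 665 (0.31, 0.26 to 0.37). At least 2-fold higher in NP were 13 of 40 members, against 2.91% of 8310 genes, and 11 of the 13 were S members. They included Rrm2 (7.31 and 26.4 CPM, log2 1.85), Tyms (2.02 and 7.26, 1.85), Rrm1 (2.50 and 8.71, 1.80), Pcna (7.11 and 19.9, 1.48) and Ccne2 (3 and 26 UMIs, 3.71 with an interval from 2.00 to 6.08). Also among the 11 were the helicase members Mcm2 (1.69), Mcm6 (1.40), Mcm5 (1.15) and Mcm7 (1.06), while Mcm3 (0.92) and Mcm4 (0.53) fell short. The 2 G2/M members were Aurkb (1.30) and Bub1 (1.03). No member was 2-fold lower, and the lowest was Cenpf at −0.09.

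In NP, 4 of the 292 cells, those between the S and G2/M limits, held 553 of the 1049 S UMIs. Without them S members were at 69.6 and 73.9 CPM (0.09, −0.08 to 0.25), and 1 of 10 S members with enough UMIs was at least 2-fold higher. Without the 4 cells with most S UMIs in each library the levels were 44.8 and 73.9 CPM (0.72, 0.53 to 0.91). The size of the S excess thus depended on a few cells, and part of it remained when both libraries were treated alike. These cells were left out after their values were seen. The called cells held 50.7% of the S member UMIs of the class in saline and 87.5% in NP. In immature neutrophil-like cells that were not called, members were lower in NP, with S members at 37.0 and 21.6 CPM (−0.78, −1.08 to −0.49) and G2/M members at 149 and 69.2 (−1.11, −1.27 to −0.95). Of the cells not called, 8 of 390 saline and 2 of 271 NP cells had at least 2000 member CPM of undrawn UMIs.

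In monocyte-like cells 39 members had at least 20 UMIs, and their levels were close in both libraries. The summed level was 356 and 324 CPM (−0.14, −0.19 to −0.08). With no upper limit on genes the log2 ratio was 0.15, so the direction depended on that limit. At least 2-fold higher was 1 member, Tk1 (8 and 40 UMIs, log2 1.40, 0.28 to 2.71), against 4.08% of 11565 genes, and 1 was at least 2-fold lower, Kif11 (12 and 10 UMIs, −1.19, −2.55 to 0.15), against 1.55%. The centromeric histone Cenpa was at 40.1 and 30.4 CPM (−0.40, −0.57 to −0.23) and Pcna at 73.7 and 86.9 (0.24, 0.12 to 0.35). Most Pcna UMIs lay outside the cells called, and over all classes the other cells had 35.4 and 59.1 CPM. Free RNA carried Pcna at 41.8 CPM in saline and 61.3 in NP. The pooled level of the other cells thus cannot be told apart from free RNA.

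In T cell-like cells a few cells held most of the G2/M UMIs of the NP library. Of 36 members with at least 20 UMIs, 24 were at least 2-fold higher in NP, against 2.93% of 9955 genes, and 19 of them were G2/M members. Mki67 was at 3.92 and 41.2 CPM and Cenpf at 0.56 and 22.8. The 6 called NP cells held 78.7% of the G2/M UMIs of the class. In T cell-like cells that were not called, G2/M members were at 101 CPM in both libraries (log2 ratio 0.01, −0.21 to 0.24).

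Alveolar macrophage-like cells showed the opposite direction. Members were at 565 and 364 CPM (−0.64, −0.74 to −0.54), and 10 of 30 members were at least 2-fold lower in NP, against 1.59% of 9859 genes, among them Rrm2 with 18 and 2 UMIs. The 6 called saline cells held 37.6% of the member UMIs of the class and the 5 called NP cells 12.0%. Without them members were at 365 and 326 CPM (−0.17, −0.28 to −0.05).

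Other classes showed members at a level without many calls. In endothelial cell-like cells the summed level was 452 CPM in saline and 465 in NP (0.04, −0.09 to 0.17), and Stmn1 alone gave 265 and 260 CPM of it, whereas G2/M members gave 28.9 and 48.7. Stmn1 was at 1.70 and 1.85 CPM in the other neutrophils. In all cells together Stmn1 was at 19.2 and 40.9 CPM (1.09, 1.00 to 1.18), and the share of endothelial cell-like cells was 296 of 8602 in saline and 1105 of 8164 in NP. NK cell-like cells were at 519 and 658 CPM (0.34, 0.15 to 0.54), and at 505 and 411 (−0.30, −0.52 to −0.08) without the called cells, so the direction turned. B cell-like cells were at 342 and 298 (−0.20, −0.32 to −0.08), and at 287 and 295 (0.04, −0.09 to 0.17) without them. Stromal cell-like cells were at 234 and 254 (0.12, −0.16 to 0.40). The other neutrophils had the lowest sums, 81.4 and 94.4 CPM.

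Cell-cycle genes outside the 40 were also higher in the cells called. Of other cell-cycle lists, 35 replication genes were 5.76-fold and 51 mitosis genes 14.8-fold higher in cycling cells than in other cells of both libraries. These lists were not used for the call. When the 86 genes were used in place of the members, 101 saline and 121 NP cells were called, of which 28 and 44 were also called by the members. That is 46.7% and 54.3% of the member calls and 27.7% and 36.4% of the calls by the other genes. The other genes with the most UMIs in cycling cells were chromatin genes and a tubulin, namely Hmgb2 at 4550 and 4997 CPM, H2afz at 2086 and 2574, Hmgn2 at 1725 and 1593, the S-phase histone Hist1h2ap at 827 and 1572 (log2 0.93, 0.82 to 1.03), and the tubulin Tuba1b at 583 and 600.4. Histone mRNAs without a poly(A) tail are captured poorly by poly(A) priming.

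Regulators of G1 and cell-cycle inhibitors behaved differently from the members. Of 21 genes, 20 had at least 20 UMIs in cycling cells. As a sum they were at 2215 CPM in cycling cells and 4292 in other cells, 0.516-fold. The antiproliferative genes Btg1 and Btg2 were at 0.241-fold and 0.317-fold and the inhibitor Cdkn1b (p27) at 0.452-fold of other cells. Cyclin E1 (Ccne1) was 13.2-fold, the inhibitor Cdkn2c 6.59-fold, the pocket protein Rbl1 3.28-fold and Cdk2 2.93-fold higher. Cdkn2d, Cdk4, Ccnd3 and Ccng2 were 1.57-fold, 1.77-fold, 1.46-fold and 1.30-fold higher. The remaining genes lay between 0.384-fold for Ccnd1 and 1.08-fold for Cdk6: Tob1, Ccng1, Myc, Cdkn1a, Ccnd2, Rbl2 and Rb1. Between the libraries, Cdkn1a (p21) was at 100.1 CPM in saline and 178 in NP cycling cells (0.83, 0.53 to 1.14), and Ccnd2 at 76.0 and 42.7 (−0.83, −1.29 to −0.38). The mix of classes differed between cycling and other cells. Within classes the same sum was 0.963-fold in immature neutrophil-like, 0.632-fold in monocyte-like, 0.589-fold in T cell-like, 0.706-fold in B cell-like, 0.681-fold in endothelial cell-like and 1.17-fold in alveolar macrophage-like cells.

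Cycling immature neutrophil-like cells differed from other cells of their cluster in granule genes that were not used for the call. The azurophil granule genes Prtn3 and Elane and the progenitor gene Ms4a3 were 5.43-fold, 6.50-fold and 6.86-fold higher, and Fcnb 5.89-fold. Cebpe, the factor of secondary granule formation, was 3.10-fold and Camp 2.05-fold higher. Genes of later stages were lower, with Retnlg at 0.109-fold, Mmp9 at 0.291-fold and Cxcr2 at 0.368-fold. Mmp8, which is on the immature neutrophil marker list, was also lower, at 0.137-fold. As sums, the immature neutrophil list was at 1.40-fold and the mature neutrophil list at 0.134-fold. Mpo had 12 UMIs in the cycling and 65 in the other cells (1.83-fold, log2 interval −0.15 to 1.77). In monocyte-like cells, the progenitor list Elane, Mpo, Prtn3, Ctsg, Ms4a3 and Fcnb was 4.00-fold higher in cycling than in other cells, F13a1 was 2.04-fold and Ly6c2 1.78-fold higher, and Ace, a gene of non-classical monocytes, was at 1.51 against 146 CPM. The other monocyte-like cells included the clusters in which no cell was called. These monocyte values therefore also carry the difference between clusters and do not compare cells within the cluster that cycled. The whole monocyte marker list was at 0.963-fold. The marker genes named here also helped to form the clusters.

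The upper limit of 5000 genes removed a larger share of the cycling barcodes than of the others. It removed 117 saline and 234 NP barcodes with under 7.5% mitochondrial UMIs, of which 41 (35.0%, 26.5 to 44.4%) and 43 (18.4%, 13.6 to 23.9%) passed the same call. Cycling barcodes above the limit made up 40.6% of all saline and 34.7% of all NP cycling barcodes. They had a median of 39200 and 41839 UMIs. Their progenitor genes were at 6532 and 6699 CPM, against 616 and 164 in the barcodes above the limit that were not called. Prtn3 was at 2820 and 2662, Mpo at 1157 and 1411 and Elane at 979 and 1090 CPM, and both Mpo and Elane had a UMI in 27 of 41 and 22 of 43. S members gave 33.9% and 33.8% of their S and G2/M UMIs, above the 15.4% and 20.1% of the cycling cells within the limit. When barcodes above the limit were clustered with the rest, the class named from progenitor markers held 26 cycling barcodes of 43 in saline and 19 of 68 in NP, and immature neutrophil-like cells 23 of 616 and 22 of 347. Without the limit the cycling shares were 101 of 8719 (1.16%, 0.944 to 1.41%) and 124 of 8398 (1.48%, 1.23 to 1.76%). The run that clustered barcodes above the limit with the rest thinned all cells anew and called 102 of 8719 in saline (1.17%). Doublets can also exceed the limit, and their part was not tested for these barcodes.

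**Figure D5:**
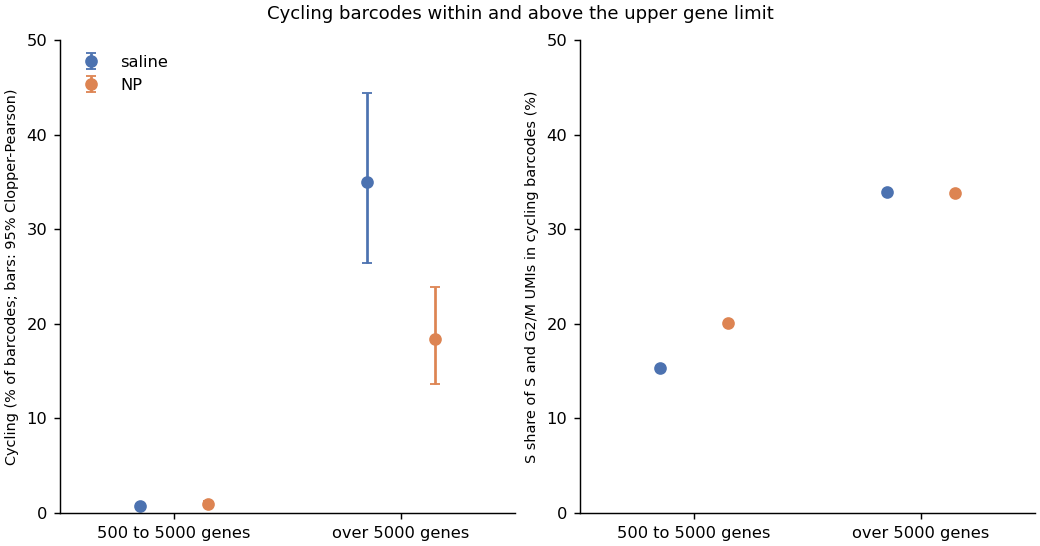
Left, percent of barcodes called cycling (y) among those with 500 to 5000 genes and those with over 5000 genes (x), with 95% Clopper-Pearson intervals. Right, share of S UMIs among S and G2/M UMIs of the cycling barcodes (y, percent) for the same sets, in saline (blue) and NP (orange). Above the limit 35.0% of saline and 18.4% of NP barcodes were cycling, with S shares of 33.9% and 33.8%.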

How the data were processed

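The authors demultiplexed the reads with bcl2fastq and aligned them to mm10 with Cell Ranger, version 6.0 per the submitters' processing notes, while the matrix headers name another version. The deposited files are UMI counts per gene and barcode before cell selection, with no normalization. The paper's methods and the labels give different numbers of pooled mice, and the labels are used here. Groups came from the treatment labels, and 1 library per group allows no p-values.

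Cells were selected as in the text, scaled to 10000 UMIs, and clustered together on 2000 variable genes, 30 principal components and 20 neighbors (Leiden, resolution 1) without cell-cycle genes and without integration. Cluster names come from marker lists and may differ from those of the study, so a difference from the study may come from rebuilt names. Shares have Clopper-Pearson intervals, levels Poisson intervals, and ratios conditional binomial intervals, all at 95% and for counting error only. A gene needed 20 UMIs over both libraries for a ratio, a count of 0 was set to a floor of 3, and called means at least 2-fold. The share that a count of 0 allows is given as 3 over the number of cells or barcodes, which is not a Clopper-Pearson limit. Doublets were kept. The automatic threshold of Scrublet (scanpy 1.11.5) marked 1 saline cell and so did not work there, and with the NP threshold in both libraries it marked 275 saline and 307 NP cells, of which 1 and 2 were cycling. Python 3.11.15, numpy 2.4.6, scipy 1.17.1, leidenalg 0.10.2 and matplotlib 3.10.9 were used, and calls and ratios were checked on simulated data. For the calls, simulated cells carried members at a low or a high level. Levels between these were not simulated, so the check does not cover them.

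The members and lists were chosen with earlier results of these data known. Named were all members, the 5 other genes with most UMIs in cycling cells and G1 genes with at least 20 UMIs there, and marker genes were chosen after their values were seen. Alternatives were other gene and mitochondrial limits, thinning depths and draws, numbers of members, gene sets, clusterings, scalings and doublet removal.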

Additional observations from a re-analysis of the deposited data

Results flagged for a closer look

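Barcodes with over 5000 genes lie outside the cell selection. They entered a comparison of classes only in the run with no upper limit on genes. Of these, 35.0% in saline and 18.4% in NP were called cycling, against 0.698% and 0.992% of the cells within the limit. The signal is flagged because it lies in data outside the main measurement and above the limit that a count of 0 allows, 2.56% and 1.28% of these barcodes. The intervals of 26.5 to 44.4% and 13.6 to 23.9% did not overlap. The cycling barcodes numbered 41 and 43, close in both libraries, whereas all barcodes above the limit numbered 117 and 234. The shares thus differ through the number of barcodes that were not called. The mix of classes above the limit was not compared between the libraries. Each library is 1 pool of mice, and the part of doublets was not tested.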

How the results depend on the processing

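With no upper limit on genes the log2 ratio of the cycling share over all cells was 0.34, with an interval (−0.05 to 0.73) that included 0. The log2 ratio of the cycling share over all cells kept its sign in 15 of 15 alternatives (0.27 to 0.93), all on the same libraries. That of immature neutrophil-like cells kept it in 14 of 15 (−0.16 to 1.30), that of monocyte-like cells in 13 of 15 (−1.37 to 0.07), that of T cell-like cells in 14 of 15 (−0.20 to 2.59), that of alveolar macrophage-like cells in 13 of 14 (−2.38 to 0.10), and that of all cells without the other neutrophils in 11 of 15 (−0.40 to 0.31). The ratio of endothelial cell-like cells (1.42) turned to −0.72 with 2000 UMIs and −0.90 in thinning draw 3. It turned to −0.50 with no upper limit on genes and −0.60 with a mitochondrial limit of 10%. That of the Mpo-led cluster (2.74) turned to −0.32 without thinning. With no upper limit on genes the class named from progenitor markers was at −1.11 (−2.05 to −0.20). It then held 43 saline cells in place of 62, so these ratios compare different cells. The S share of all cycling cells was 19.0% (saline) and 24.0% (NP) with 2 members for a call, 13.6% (saline) with 5, 18.7% and 23.5% with other replication and mitosis genes, 33.8% and 37.6% with equal weight per cell, 26.5% and 27.4% with no upper gene limit, and 14.3% (saline) with the limit on undrawn UMIs. In immature neutrophil-like cells it was 10.1% (saline) with 5 members, 9.67% and 20.9% with the other genes, 9.86% and 20.6% with equal weight, 9.49% and 16.7% in thinning draw 3, and 13.2% (saline) with no upper limit. The log2 ratio of the summed members was 0.51 (all cells), 0.31 (immature neutrophil-like) and −0.21 (monocyte-like) with equal weight per cell, 0.32, 0.35 and 0.15 with no upper limit, and 0.049 over all cells when scaled to the median gene, which lay at 0.39. The log2 ratio of S members in immature neutrophil-like cells (1.13) was 0.086 without the 4 NP cells with most S UMIs and 0.72 without 4 such cells of each library. The causes were not tested. The limit on undrawn UMIs, the cells left out and a shared doublet threshold were chosen after seeing the data, and doublet removal by the automatic threshold was not run. Keeping the cell-cycle genes in the clustering moved calls between classes. No paired analysis was possible because each group has 1 library, and for the same reason no replicate could be left out. Shares of classes with under 20 calls rest on few cells.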
